A study of Mus musculus with 53 samples.

Results

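Ttbk2, Ppp2r2b, Afg3l2, Fgf14, Elovl5, Eef2, Atxn10 and Nop56 are the mouse counterparts of human genes in which mutations cause forms of spinocerebellar ataxia other than type 3. They were chosen by symbol, and 8 of 8 were found among the 12372 genes of the brain count table. RNA was sequenced from brainstem, cerebellum, cortex and striatum of 14 male mice aged 74 to 77 weeks, giving 53 libraries of 31.7 to 76.7 M counted reads. The wild-type groups were C57BL/6 mice (brainstem n = 8, cerebellum n = 7, cortex n = 7, striatum n = 8). The SCA3 groups were hemizygous MJD84.2 mice on the same background (brainstem n = 6, cerebellum n = 6, cortex n = 6, striatum n = 5). These mice carry full-length human ATXN3 whose CAG repeat is expanded, expressed ubiquitously from the human promoter beside the mouse Atxn3 gene, so the line models expression of the mutant protein and not loss of the normal one. A mouse gave up to 4 libraries. In these bulk samples fewer cells of a type and less RNA per cell cannot be told apart.

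Spinocerebellar ataxias are dominantly inherited diseases in which the cerebellum, the brainstem and their connections degenerate. SCA3 belongs to the polyglutamine group, in which a translated CAG repeat lengthens a protein. The 8 genes considered here cause ataxia in other ways: through expanded repeats outside the coding sequence (PPP2R2B, ATXN10, NOP56 and, in one form, FGF14), or through changes to a kinase, a channel partner, a protease, a lipid enzyme or a translation factor (TTBK2, FGF14, AFG3L2, ELOVL5 and EEF2). They share a disease class and not a pathway.

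Start regions of 3 members are shown from the RefSeq promoter table (GRCm38.p6), each from 70 bases before the listed start to 30 bases after it. Elovl5 and Eef2 are shown because both hold the palindrome TGACGTCA, known as the full cAMP response element, in almost the same place. Fgf14 is shown because it had the smallest adjusted p of the members in the genotype comparisons below. Capitals mark TGACGTCA in Elovl5 and Eef2, and CCGCCC, which is GGGCGG on the other strand and the core of a GC box, in Fgf14.
Elovl5: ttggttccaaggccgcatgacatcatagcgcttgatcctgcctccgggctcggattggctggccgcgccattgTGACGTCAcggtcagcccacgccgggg
Eef2: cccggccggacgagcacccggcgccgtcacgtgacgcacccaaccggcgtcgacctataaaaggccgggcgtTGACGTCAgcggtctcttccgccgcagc
Fgf14: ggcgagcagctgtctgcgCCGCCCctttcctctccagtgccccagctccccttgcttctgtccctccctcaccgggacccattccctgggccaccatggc
The Elovl5 window is chr9:77917295-77917394 and the Eef2 window chr10:81176561-81176660, both on the plus strand. TGACGTCA occupied bases 4 to 11 after the start of Elovl5 and bases 3 to 10 after that of Eef2. Among the promoters of genes in the count table, 3.05% held TGACGTCA anywhere from 250 bases before to 50 after the start, and 0.611% held it within 20 bases of the start (75 of 12279). GGGCGG on either strand was common (62.6% of those promoters), and the Fgf14 entry held it 2 times. The Fgf14 window, chr14:124192517-124192616 on the minus strand, belongs to a start 485 kb inside the annotated gene, that of a shorter transcript. TGACGTCA was not in the entries of Ttbk2, Nop56, Fgf14 and Atxn10. The motif was picked after the sequences had been seen, and a match is a description of letters, not of a site in use.

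By group means in wild-type brain, 6 of the 8 genes were highest in brainstem. Ppp2r2b was highest in cortex, and Fgf14 was highest in cerebellum and lowest in brainstem. The share of all genes highest in brainstem is not given here, so this count does not set the members apart. Of the 6, Afg3l2 was not distinguished between brainstem and cortex, and the Atxn10 step between them was lost in some alternative fits given below. The largest differences between regions were 2.81-fold for Ppp2r2b (cortex over cerebellum), 2.10-fold for Ttbk2 (brainstem over cortex), 1.88-fold for Fgf14 (cerebellum over brainstem) and 1.84-fold for Elovl5 (brainstem over cortex). Afg3l2 and Nop56 differed least, by 1.13-fold and 1.19-fold between their highest and lowest regions. Levels are TMM-normalized counts scaled per library (CPM), and each region pair was tested on all genes with the edgeR likelihood ratio test at a false discovery rate (FDR) below 0.05. Between brainstem and cerebellum 8 of 8 members passed, where 72.6% of all genes did. Brainstem and cortex differed for 7 members (65.4% of all genes), brainstem and striatum for 8 (64.2%), cerebellum and cortex for 6 (69.7%), cerebellum and striatum for 5 (69.5%), and cortex and striatum for 2 (34.4%). With shares this high among all genes, the counts do not set the members apart from other genes. With the mouse as a random replicate block in limma-voom, 4 members instead of 2 passed between cortex and striatum, Atxn10 (FDR 0.031) and Nop56 (FDR 0.045) in addition to Ppp2r2b and Elovl5 (39.1% of all genes). Without the 7 libraries high in the thalamic marker Tcf7l2 described below, 4 also passed (34.4%), while Atxn10 and Ppp2r2b were lost between brainstem and cortex and Elovl5 between cerebellum and striatum. Without wild-type mouse 7267059 alone 4 passed between cortex and striatum (4334 of 12372 genes).

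**Figure D1:**
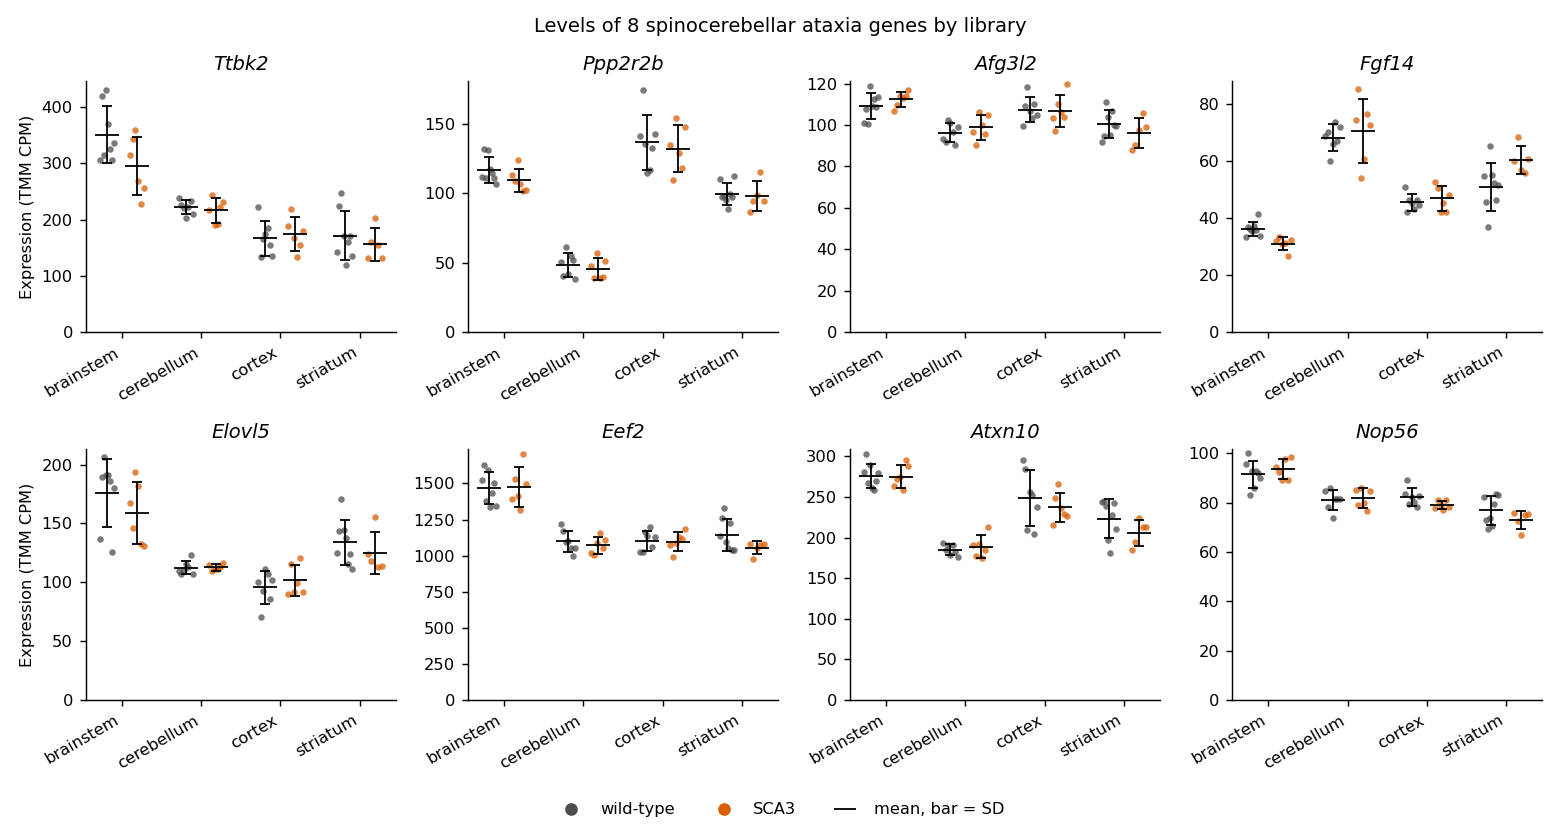
Levels of the 8 genes in every library, in TMM-normalized CPM (y axis, from 0) by brain region (x axis). Grey points are wild-type and orange points SCA3 libraries, and the black lines give the group mean with its SD. The highest and lowest regions of Ttbk2 and Ppp2r2b lie farther apart than the genotypes in any region, and the brainstem values of Fgf14 lie from 33.5 to 41.2 CPM in wild-type and from 26.6 to 33.3 CPM in SCA3 mice.

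Ttbk2, the tau tubulin kinase that licenses the start of primary cilia, was a brainstem-high gene. Its wild-type level was 306 CPM at the lowest, 331 at the median and 431 at the highest in brainstem, and 203, 223 and 239 CPM in cerebellum. In cortex the corresponding values were 133, 166 and 223 CPM, and in striatum 119, 165 and 248 CPM. Brainstem did not overlap with the other regions, and it was above each of them in 13 of 13 mice. Such counts of mice, here and below, take wild-type and SCA3 mice together. Brainstem exceeded cerebellum by 0.66 ± 0.13 (log2 difference ± SE, FDR 4e-07), and cerebellum exceeded cortex by 0.41 ± 0.13 (FDR 0.0029) and striatum by 0.37 ± 0.13 (FDR 0.005). Cortex and striatum were not distinguished (log2 difference -0.04, 95% interval -0.28 to 0.21, FDR 0.86).

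Ppp2r2b encodes a brain B-type regulatory subunit that directs protein phosphatase 2A to its substrates. Its wild-type level ranged from 114 to 174 CPM in cortex (median 135), from 107 to 132 CPM in brainstem (median 113) and from 88.3 to 112 CPM in striatum (median 97.5). In cerebellum it ranged from 38.1 to 61.4 CPM with a median of 50.7, below every library of the other regions. Cerebellum was lower than cortex by a log2 difference of -1.49 ± 0.10 (FDR 3.6e-50), lower than striatum by -1.04 ± 0.09 (FDR 1.3e-26), and lower than brainstem in 13 of 13 mice (1.27 ± 0.09 for brainstem minus cerebellum, FDR 2.1e-38). The smaller steps at the top of the order, brainstem minus cortex (-0.23 ± 0.09, FDR 0.025) and brainstem minus striatum (0.23 ± 0.09, FDR 0.019), overlapped. The first was lost when mouse 7267055 (FDR 0.062), 7267058 (0.084) or 9083375 (0.069) was left out, and the second without mouse 7267058 (0.052), 9082857 (0.064) or 9083371 (0.060).

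Fgf14 encodes an intracellular FGF homologous factor, which is not secreted but binds voltage-gated sodium channels and sets the firing of Purkinje and granule cells. It was the only member lowest in brainstem. Its wild-type level ranged from 59.8 to 73.7 CPM in cerebellum (median 68.8), from 36.9 to 65.2 CPM in striatum (median 51.9), from 42.0 to 51.0 CPM in cortex (median 45.0) and from 33.5 to 41.2 CPM in brainstem (median 35.8). Brainstem was lower than cerebellum in 13 of 13 mice (log2 difference -0.91 ± 0.08, FDR 1.2e-27), and also lower than cortex (-0.33 ± 0.08, FDR 0.00015) and striatum (-0.49 ± 0.08, FDR 3.1e-09) in 13 of 13 mice each. Cerebellum exceeded striatum by 0.42 ± 0.08 (FDR 6.5e-07). Cortex and striatum did not pass the test (-0.16 ± 0.08, 95% interval -0.32 to -0.00, FDR 0.11). They passed in 2 of 26 alternatives, without the libraries high in Tcf7l2 (-0.25, FDR 0.0059) and without mouse 7267059 (-0.22, FDR 0.020).

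Elovl5 encodes the elongase that lengthens polyunsaturated fatty acids. Its wild-type level ranged from 126 to 206 CPM in brainstem (median 188), from 111 to 171 CPM in striatum (median 131), from 107 to 123 CPM in cerebellum (median 110.4) and from 70.6 to 111 CPM in cortex (median 100.3). Brainstem exceeded striatum by 0.39 ± 0.10 (FDR 0.00013), and striatum exceeded cerebellum by 0.26 on the log2 scale (cerebellum minus striatum -0.26 ± 0.10, FDR 0.017). Cerebellum exceeded cortex by 0.23 ± 0.10 (FDR 0.038), which did not pass with the mouse as a fixed replicate block (0.21, FDR 0.071) or in wild-type libraries alone (FDR 0.051). Of these neighbours only the last 2 steps changed call when a mouse was left out: striatum against cerebellum was lost without 7267059 (FDR 0.098) or 9082857 (0.052), and cerebellum against cortex without 7267058 (0.14), 9082857 (0.070) or 9083373 (0.12).

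Eef2, the elongation factor that moves the ribosome along the mRNA, and Nop56, a core protein of the box C/D particles that guide ribosomal RNA methylation, both stood higher in brainstem than in the other regions, which lay close together. Eef2 averaged 1467 ± 111 CPM (SD, n = 8) in wild-type brainstem, with no overlap with cerebellum (1098 ± 75.6), cortex (1104 ± 68.9) or striatum (1146 ± 111). None of the 3 differences among those 3 regions passed (largest log2 difference -0.06, cerebellum minus striatum, 95% interval -0.18 to 0.06). Nop56 averaged 91.5 ± 5.37 CPM in brainstem, 82.3 ± 3.61 in cortex, 81.1 ± 4.15 in cerebellum and 77.0 ± 5.90 in striatum. Brainstem exceeded cortex by 0.15 ± 0.05 (FDR 0.0017), cerebellum by 0.18 ± 0.05 (FDR 0.00026) and striatum by 0.25 ± 0.04 (FDR 8e-08), each in 13 of 13 mice, although the wild-type ranges overlapped.

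Atxn10, the gene of the armadillo-repeat protein ataxin-10, averaged 276 ± 15.1 CPM in brainstem, 249 ± 34.3 in cortex, 223 ± 24.2 in striatum and 185 ± 6.26 in cerebellum. Cerebellum was lower than striatum by -0.27 ± 0.07 (FDR 0.00014) and lower than cortex by -0.42 ± 0.07 (FDR 4.2e-09). Brainstem minus cortex (0.15 ± 0.07, FDR 0.037) was lost without mouse 9082857 (FDR 0.19), 9083373 (0.16), 9083375 (0.095) or 9083514 (0.051), with RNA integrity as a covariate (0.094), in wild-type libraries alone (0.074) and without the libraries high in Tcf7l2 (0.056). Cortex minus striatum did not pass (0.15 ± 0.07, 95% interval 0.02 to 0.29, FDR 0.062). It passed in 6 of 26 alternatives: both replicate block fits, without the libraries high in Tcf7l2, with RNA integrity as a covariate (0.17, FDR 0.045), among libraries with an integrity of at least 7 (0.20, FDR 0.024) and without mouse 9083373 (0.21, FDR 0.015). Afg3l2, a subunit of the m-AAA protease that clears damaged proteins of the inner mitochondrial membrane, was the flattest. It averaged 109 ± 6.29 CPM in brainstem, 107 ± 6.02 in cortex, 100.4 ± 6.66 in striatum and 96.3 ± 4.73 in cerebellum. Brainstem exceeded cerebellum by 0.18 ± 0.05 (FDR 0.00069), while brainstem and cortex were not distinguished (0.02, 95% interval -0.08 to 0.12, FDR 0.74). Brainstem minus striatum (0.12 ± 0.05, FDR 0.024) was lost when 1 of 5 wild-type mice was left out (FDR 0.055 to 0.085 without 7267058, 9082857, 9083371, 9083373 or 9083375) and among libraries with an RNA integrity number of at least 7 (0.10, FDR 0.078).

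On GRCm38 the genes lay on 6 chromosomes. Ttbk2 (SCA11, Entrez 140810) spans chr2:120732816-120850584 on the minus strand, and Nop56 (SCA36, Entrez 67134) chr2:130274367-130279313 on the plus strand. Elovl5 (SCA38, Entrez 68801) spans chr9:77917365-77984519, Eef2 (SCA26, Entrez 13629) chr10:81176631-81182509 and Atxn10 (SCA10, Entrez 54138) chr15:85336255-85463837, all on the plus strand. Fgf14 (SCA27, Entrez 14169) spans chr14:123974441-124677686, while Ppp2r2b (SCA12, Entrez 72930) and Afg3l2 (SCA28, Entrez 69597) span chr18:42645207-43059471 and chr18:67404764-67449192, all on the minus strand. Fgf14 was the longest of these genes at 703246 bases of genome for 4182 exonic bases, and Nop56 the shortest at 4947 bases. Counting was not strand-specific. By GENCODE M21, 5 exonic bases of Nop56 overlapped Idh3b on the other strand and 220 of Fgf14 an antisense RNA. One GENCODE transcript of Cdan1 ran through Ttbk2 and shared 3409 of its 11289 exonic bases, although the RefSeq spans of Cdan1 and Ttbk2 did not overlap.

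Levels between genes were compared per exonic length, as reads per kilobase of exon scaled to library size (RPKM). Averaged over the 53 libraries, Eef2 stood at 387 RPKM and Atxn10 at 119.5 RPKM, followed by Ppp2r2b at 48.7, Elovl5 at 46.1, Nop56 at 44.1 and Afg3l2 at 33.5 RPKM. Ttbk2 (19.7 RPKM) and Fgf14 (12.1 RPKM) were the lowest. Every member was well counted, with at least 1163 reads in any library (Fgf14), so that spread between mice and not depth set the error.

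**Figure D2:**
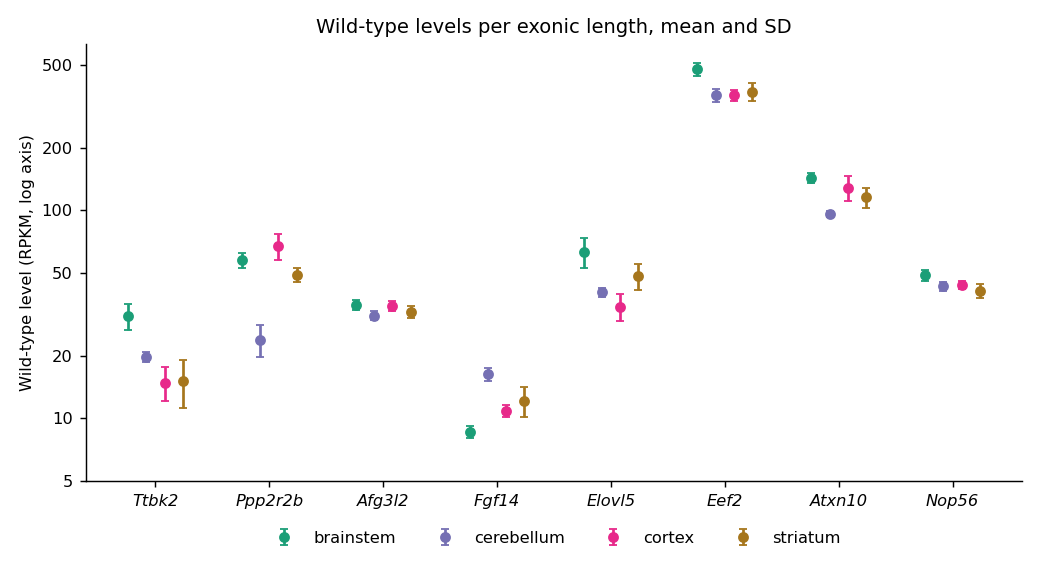
Wild-type level of each gene per exonic length in RPKM (y axis, log scale) by gene (x axis) and region (colour), as mean with SD over 7 or 8 libraries. Eef2 lies highest at 475 RPKM in brainstem and Fgf14 lowest at 8.65 RPKM in brainstem, and Fgf14 alone has its brainstem value at the bottom.

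Libraries were checked against cell type markers before genotypes were compared. All 6 defining thalamic markers were measured, and Tcf7l2, the transcription factor that marks thalamic neurons, exceeded 6 on the log2 CPM scale in 7 libraries (92.3 to 162 CPM, against at most 62.0 CPM in the other 46). These were 5 brainstem libraries (wild-type mice 7267055 and 9083373, SCA3 mice 7267056, 9083514 and 9083515) and 2 striatal libraries (wild-type mice 7267058 and 7267059). Not every thalamic marker went with Tcf7l2. Prkcd, also on the thalamic list, was lowest of all brainstem libraries in those of mice 9083373 (16.7 CPM) and 7267056 (18.3 CPM). The thalamic score of the latter (5.12) lay below that of the brainstem library of mouse 7267059 (5.17), which was not high in Tcf7l2. All 6 defining striatal projection markers were measured, and in striatum their list had a mean score of 9.20 in SCA3 and 8.55 in wild-type mice, on the log2 CPM scale. RNA integrity was higher in SCA3 than in wild-type brainstem (7.78 ± 0.264, n = 6, against 7.24 ± 0.424, n = 8, exact two-sided permutation p = 0.011, adjusted over 4 regions 0.043). None of 52 tests of 13 marker scores in 4 regions passed adjustment (smallest adjusted p 0.34 by exact permutation). Of the defining markers, those of brainstem neurons and most of those of cerebellar neurons were not analysed here.

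To ask whether mutant ataxin-3 altered these genes, SCA3 and wild-type mice were compared in each region within a fit of all 53 libraries. No member passed in any region by the edgeR likelihood ratio test: 0 of 8 in brainstem (1.92% of all genes passed), 0 of 8 in cerebellum (0.0647%), 0 of 8 in cortex (0.154%) and 0 of 8 in striatum (7.54%). The edgeR quasi-likelihood test also called 0 members in each region (1.62%, 0.0566%, 0.129% and 6.93% of all genes in brainstem, cerebellum, cortex and striatum), as did DESeq2 and limma-voom. In fits of each region alone 1 member passed in brainstem (3.17% of all genes) and 0 in cerebellum (0.17%), cortex (0.283%) and striatum (0.711%). At an unadjusted p below 0.05, 1 member stood out in brainstem (13.3% of all genes) and 1 in striatum (23.2%), Fgf14 both times, and 0 in cerebellum (1.66%) and cortex (4.07%). A combined test over regions called 0 of 8 members (4.73% of all genes), and the test of whether the genotype effect differs between regions called 0 of 8 (0.218%). Each had 1 member below an unadjusted p of 0.05, Fgf14 again.

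The intervals bound what could have been missed. Of 32 log2 differences, 24 were smaller than 0.1 in size, and 31 of the 95% intervals lay between -0.5 and 0.5. Afg3l2 and Nop56 were measured most tightly: for Nop56 the brainstem difference was 0.03 (95% interval -0.06 to 0.12) and the cerebellar difference 0.02 (-0.08 to 0.11), and for Afg3l2 they were 0.05 (-0.06 to 0.15) and 0.04 (-0.07 to 0.14). Ttbk2 had the widest intervals, and its brainstem difference was the only one whose interval passed -0.5 on the log2 scale. The median difference over the 8 members was -0.05 in brainstem, 0.01 in cerebellum, -0.01 in cortex and -0.09 in striatum, where the medians of all genes were 0.00, -0.00, -0.00 and -0.00. The median size of a difference was 0.07, 0.04, 0.05 and 0.11, against 0.08, 0.04, 0.06 and 0.11 over all genes.

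**Figure D3:**
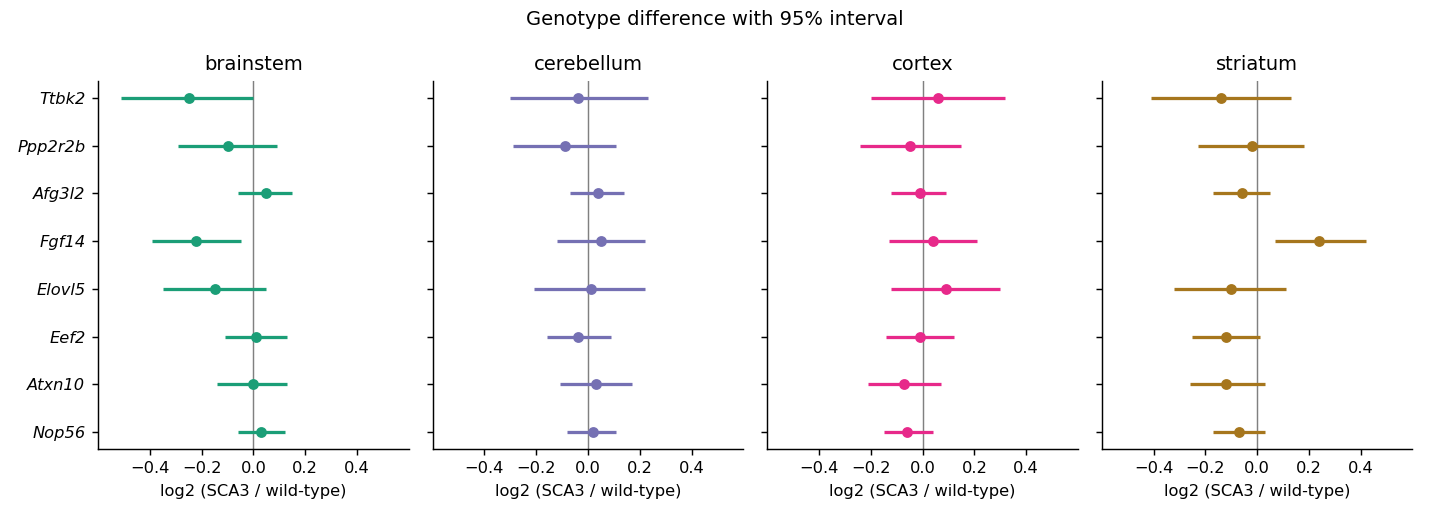
Log2 difference of SCA3 from wild-type mice (x axis) for each gene (y axis) in 4 regions, with points for the estimate and lines for the 95% interval. The intervals of Fgf14 in brainstem (-0.39 to -0.05) and striatum (0.07 to 0.42) are the only ones that leave out 0, before adjustment, and they lie on opposite sides of it.

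Fgf14 was lower in SCA3 brainstem and higher in SCA3 striatum, in neither case past the FDR threshold. In brainstem the wild-type libraries held 33.5, 33.5, 35.4, 35.6, 36.0, 36.8, 37.1 and 41.2 CPM, and the SCA3 libraries 26.6, 31.0, 31.1, 32.0, 32.2 and 33.3 CPM. The groups did not overlap, with the highest SCA3 value just under the lowest wild-type values. This was the only one of the 32 comparisons without overlap, and 1.38% of all genes had brainstem groups that did not overlap. The log2 difference was -0.22 ± 0.09 (FDR 0.19), that is 31.0 ± 2.34 against 36.2 ± 2.45 CPM.

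The brainstem difference passed when brainstem libraries were fitted alone (-0.23, FDR 0.041, where 3.17% of all genes passed), and with the thalamic marker score added to that fit (-0.22, FDR 0.030, where 5.49% of all genes passed). Over all 30 alternatives its FDR ran from 0.028 to 0.67 and its sign held. Without the 5 brainstem libraries high in Tcf7l2 it was -0.19 (FDR 0.094 among brainstem libraries alone, 0.67 among all regions). Leaving out SCA3 mouse 9083514, whose value of 26.6 CPM was the lowest, gave -0.19 (FDR 0.58). With RNA integrity as a covariate it was -0.23 (FDR 0.23).

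In striatum the 8 wild-type libraries ranged from 36.9 to 65.2 CPM with a median of 51.9, and the SCA3 libraries held 55.8, 56.6, 59.8, 60.5 and 68.4 CPM. The highest SCA3 value lay above the wild-type range and the other SCA3 values in its upper part, and the groups overlapped through wild-type mouse 9082857 at 65.2 CPM. The log2 difference was 0.24 ± 0.09 (FDR 0.066). It passed in 3 of 30 alternatives, each time with a mouse left out: 9082857 (0.30, FDR 0.0078), 9082853 (0.27, FDR 0.041) or 9083371 (0.26, FDR 0.049). Without mouse 7267056 or 7267059 it was 0.19 (FDR 0.25 and 0.21). Among libraries with an RNA integrity of at least 7 it was 0.24 (FDR 0.23). In cerebellum (0.05, 95% interval -0.12 to 0.22) and cortex (0.04, 95% interval -0.13 to 0.21) no difference was detected.

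Marker scores were set beside the striatal values. Across the 13 striatal libraries, as deviations from the genotype means, Fgf14 rose with the striatal projection marker score (Pearson r 0.893, permutation p 0.00019, adjusted over 416 relations 0.014; Spearman rho 0.824, permutation p 0.0031, adjusted 0.044). Without the 2 libraries farthest from the median score r was 0.79, and among the 11 libraries that were not high in Tcf7l2 it was 0.787. In fits of striatum alone the genotype difference was 0.24 with no score (FDR 0.34), 0.06 with the striatal projection score, 0.13 with the oligodendrocyte score and 0.11 with the thalamic score. Without the 2 thalamus-marked wild-type libraries, whose Fgf14 values of 36.9 and 45.4 CPM were the lowest of the group, it was 0.16 (FDR 0.58). In brainstem Fgf14 did not track the thalamic score (r -0.243, rho -0.0813, permutation p 0.43 and 0.79, r without the 2 farthest libraries -0.217).

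Over the combined test Fgf14 had an FDR of 0.083, and it passed in 2 of 24 alternatives. These were without mouse 9082853 (FDR 0.029) and without mouse 9082857 (FDR 0.012). The FDR rose to 0.63 without the libraries high in Tcf7l2 and to 0.28 among libraries with an RNA integrity of at least 7. For region dependence its FDR was 0.19 by the edgeR likelihood ratio test. It passed in 1 of 25 alternatives, without mouse 9082857 (FDR 0.023), and the FDR was 0.59 among libraries with an RNA integrity of at least 7. Mouse 9082857 had the highest wild-type Fgf14 level in striatum. Mice were also grouped by the opening digits of their numbers, a grouping that the labels do not name. In the largest such group alone the Fgf14 differences were -0.30 in brainstem (FDR 0.070) and 0.18 in striatum (FDR 0.64). Within that group every SCA3 mouse was slightly younger than every wild-type mouse, and the genotypes held separate runs of numbers. This fit therefore cannot tell genotype from age or number run.

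**Figure D4:**
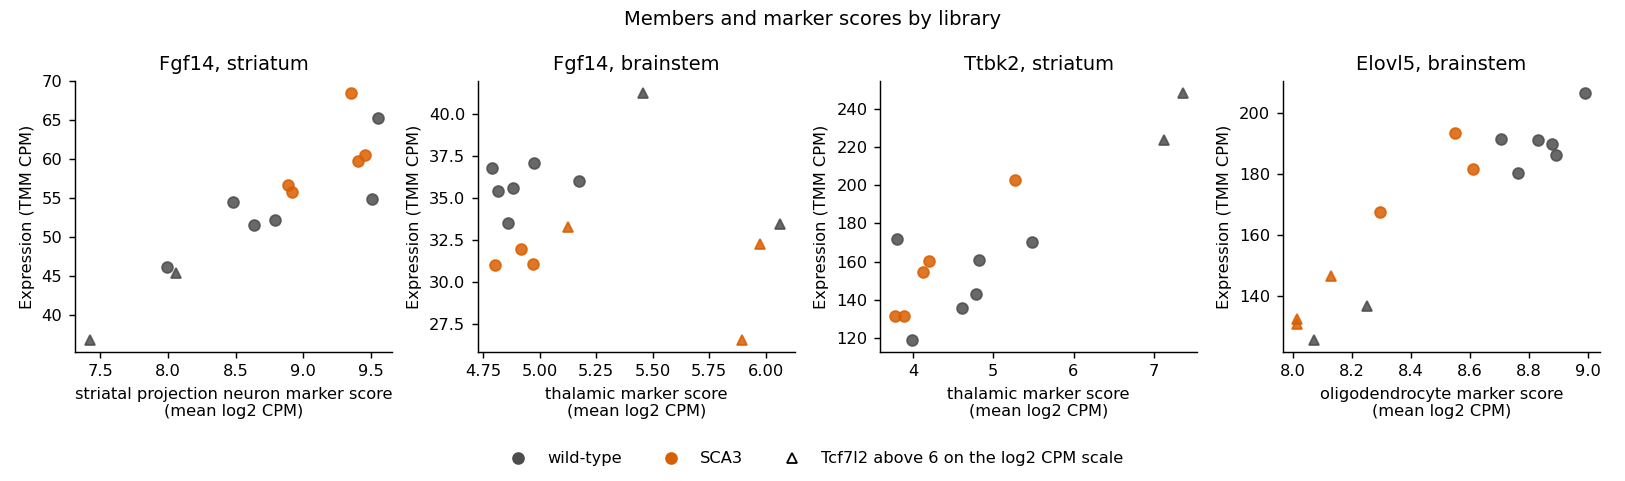
Level of a member in TMM-normalized CPM (y axes, not starting at 0) against a marker score, the mean log2 CPM of a marker list (x axes), for single libraries of striatum or brainstem. Grey is wild-type, orange SCA3, and triangles are libraries with Tcf7l2 above 6 on the log2 CPM scale. Fgf14 follows the projection neuron score in striatum (r 0.893) but not the thalamic score in brainstem (r -0.243), and Elovl5 follows the oligodendrocyte score in brainstem (r 0.972).

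Ttbk2 had the largest log2 difference of any member in brainstem, -0.25 ± 0.13 (95% interval -0.51 to 0.00, FDR 0.39), without reaching the threshold. The 8 wild-type libraries ran from 306 to 431 CPM (median 331) and the 6 SCA3 libraries held 228, 256, 269.6, 315, 343 and 359.6 CPM, so that 3 SCA3 values lay below the whole wild-type range and 3 within it. Of those 3 low values 2, from mice 9083514 and 9083515, came from libraries high in Tcf7l2. Without all brainstem libraries high in Tcf7l2, 3 SCA3 and 2 wild-type, the difference was -0.22 (FDR 0.47, brainstem alone). In brainstem Ttbk2 fell as the thalamic score rose (rho -0.829, permutation p 0.0009, adjusted 0.034; r -0.735, permutation p 0.005, adjusted 0.053; without the 2 farthest libraries -0.767). In striatum the relation had the other sign: r was 0.867 (permutation p 0.0011, adjusted 0.023) and rho 0.758 (permutation p 0.0056, adjusted 0.063), and r was 0.644 without the 2 farthest libraries, which were the 2 high in Tcf7l2. Striatal Ttbk2 stood at 119 to 248 CPM in wild-type and 131 to 203 CPM in SCA3 mice. Its genotype difference of -0.14 (95% interval -0.41 to 0.13, FDR 0.58) became 0.06 without those 2 libraries (FDR 0.88) and 0.12 with the thalamic score (FDR 0.84), neither sign passing.

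Elovl5 followed the oligodendrocyte markers, 12 of 12 of which were measured. In brainstem its wild-type libraries ran from 126 to 206 CPM (median 188) and the SCA3 libraries held 131, 132, 146, 167, 182 and 193 CPM, with ranges that overlapped. The log2 difference was -0.15 ± 0.10 (95% interval -0.35 to 0.05, FDR 0.56). Across the 14 brainstem libraries Elovl5 and the oligodendrocyte score had r 0.972 (permutation p 4e-05, adjusted 0.0055) and rho 0.908 (permutation p 0.00028, adjusted 0.023), and r was 0.971 without the 2 farthest libraries. The astrocyte score gave r 0.91 and rho 0.93 there (permutation p 1e-05 and 2e-05, adjusted 0.0042 and 0.0062, r 0.919 without the 2 farthest). The 5 libraries high in Tcf7l2 held the 5 lowest oligodendrocyte scores and the 5 lowest Elovl5 values, and among the other 9 libraries r was 0.726. In striatum r was 0.888 (permutation p 0.00031, adjusted 0.014) and rho 0.808 (permutation p 0.0024, adjusted 0.039), with r 0.826 without the 2 farthest.

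The oligodendrocyte score was lower in SCA3 brainstem (8.27 ± 0.262 against 8.67 ± 0.331, exact permutation p = 0.032, adjusted 0.34). With that score as a covariate in the fit of brainstem alone, an alternative added after the data had been seen, the sign of the Elovl5 difference turned and it passed (0.18, FDR 0.016), in a fit where 10.6% of all genes passed. Without the libraries high in Tcf7l2 it was -0.08 (FDR 0.72, brainstem alone). In striatum the difference was -0.10 (95% interval -0.32 to 0.11, FDR 0.60), and it was 0.07 with the oligodendrocyte score (FDR 0.78). Cerebellar Elovl5 was nearly the same in both genotypes (112 ± 5.64 CPM, n = 7, against 113 ± 2.69, n = 6), with a difference of 0.01 and an interval of -0.21 to 0.22.

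The other members gave no difference beyond the spread between mice. Ppp2r2b averaged 109 ± 8.30 CPM in SCA3 and 117 ± 9.43 in wild-type brainstem, and its differences in the 4 regions ran from -0.10 to -0.02, with FDR of at least 0.73. In cerebellum its level followed the striatal projection marker score (r 0.951, rho 0.901, permutation p 2e-05 and 0.00014, adjusted 0.0042 and 0.015, r 0.953 without the 2 farthest libraries), a list whose genes are low there. Eef2 averaged 1054 ± 44.7 CPM in SCA3 and 1146 ± 111 in wild-type striatum (-0.12, 95% interval -0.25 to 0.01, FDR 0.26) and changed by at most 0.04 in size elsewhere. Atxn10 averaged 206 ± 15.9 against 223 ± 24.2 CPM in striatum (-0.12, 95% interval -0.26 to 0.03, FDR 0.34). Nop56 averaged 73.2 ± 3.68 against 77.0 ± 5.90 CPM in striatum (-0.07, 95% interval -0.17 to 0.03, FDR 0.38), where it fell as the oligodendrocyte score rose (r -0.878, rho -0.868, permutation p 0.00039 and 0.0014, adjusted 0.014 and 0.039, r -0.875 without the 2 farthest). Afg3l2 averaged 96.1 ± 7.23 against 100.4 ± 6.66 CPM in striatum (-0.06, 95% interval -0.17 to 0.05, FDR 0.51).

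In all, 416 relations between a member and a marker score were computed, and 23 passed adjustment by both Pearson and Spearman: 9 for Elovl5, 5 for Ppp2r2b, 3 for Ttbk2, 2 each for Fgf14, Atxn10 and Nop56, and 0 for Afg3l2 and Eef2. The libraries also share depth, RNA integrity and dissection, whose part in these relations was not tested.

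Spread between mice differed among the members. The biological coefficient of variation of the edgeR fit was 5.94% for Nop56 and 6.54% for Afg3l2, at percentiles 2.97 and 6.46 of all genes, and 16.7% for Ttbk2, at percentile 75.0. Ppp2r2b (12.4%), Elovl5 (13.3%) and Fgf14 (10.8%) lay between, as did Eef2 (8.04%) and Atxn10 (8.96%). The members did not vary as one group: as deviations from the 8 group means, the highest correlation between members was that of Ttbk2 and Elovl5 (r 0.519, rho 0.467, n = 53), followed by Ppp2r2b and Nop56 (r 0.432, rho 0.390). These describe libraries that share mice and are given without a test.

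The genes most like each member over the 53 libraries, by Pearson correlation of log2 CPM, which includes the steps between regions, are named next. For Ttbk2 they were Ubxn2a, Sacm1l and Abca5 (r 0.961 to 0.951), for Ppp2r2b Mllt11, Creg2 and Tubb5 (0.981 to 0.971), for Fgf14 Ahctf1, Setd2 and Pcmtd2 (0.967 to 0.956) and for Elovl5 Spg20, Cers2 and Magt1 (0.959 to 0.953). For Eef2 they were Ogdhl, Sez6l2 and Flywch1 (0.919 to 0.891), for Atxn10 Rasgrf1, Gnl3l and Prkar1a (0.928 to 0.925), for Afg3l2 Rab3a, Lrrc59 and Mfsd5 (0.881 to 0.848) and for Nop56 Pnpla6, Txnrd3 and Sms (0.842 to 0.823). After the group means were taken out, the likeness fell, to Mios, Arhgap20 and Setd2 for Fgf14 (0.804 to 0.786) and to Enpp1, Vamp3 and Pla2g4a for Elovl5 (0.890 to 0.886). Ttbk2 then stood closest to Rufy3, Trip11 and Abca5 (0.875 to 0.873), Ppp2r2b to Ak5, Pfn2 and Creg2 (0.846 to 0.831), Atxn10 to Angpt1, Grin3a and Gnl3l (0.854 to 0.833), Afg3l2 to Rab3a, Mfsd5 and Rrp12 (0.820 to 0.762) and Eef2 to genes that include Slc39a7 and Ndufv1 (0.741 and 0.740). Nop56 had the weakest likeness, to Dcx, Agk and 3300002P13Rik (0.668 to 0.639). Abca5, Rab3a, Mfsd5, Setd2, Creg2 and Gnl3l stood among the nearest genes of their member in both measures.

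Partners and pathway neighbours were read from 9 lists, 140 of whose 143 genes were in the table. In cerebellum and cortex 0 of 140 passed by the likelihood ratio test, and 0 by the quasi-likelihood test and limma-voom. At an unadjusted p below 0.05 by the likelihood ratio test there were 1 and 7 list entries (1.66% and 4.07% of all genes). In brainstem 4 passed and in striatum 17. The shares of all genes that passed were 1.92% in brainstem and 7.54% in striatum, and they apply to each list count below. In fits of striatum alone 3 passed, among them Atxn3 and Fads2 (0.711% of all genes). With a marker score added to that fit, 4 of the 17 passed for oligodendrocytes (3.11% of all genes), 1 for the thalamus (0.703%) and 1 for striatal projection neurons (0.267%). Of the 4 brainstem calls 3 passed with the oligodendrocyte score in brainstem alone (10.6% of all genes), 4 with the thalamic score (5.49%) and 4 with the striatal projection score (3.31%). In brainstem alone without a score 5 list genes passed (3.17%), the fifth being Spg7. Without the libraries high in Tcf7l2 7 passed in striatum (2.76% of all genes), among them Ppp2r3a, which was not one of the 17 (0.32, FDR 0.018), and 1 in cortex (0.493%), Ppp2r3a again (0.32, FDR 0.024).

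**Figure D5:**
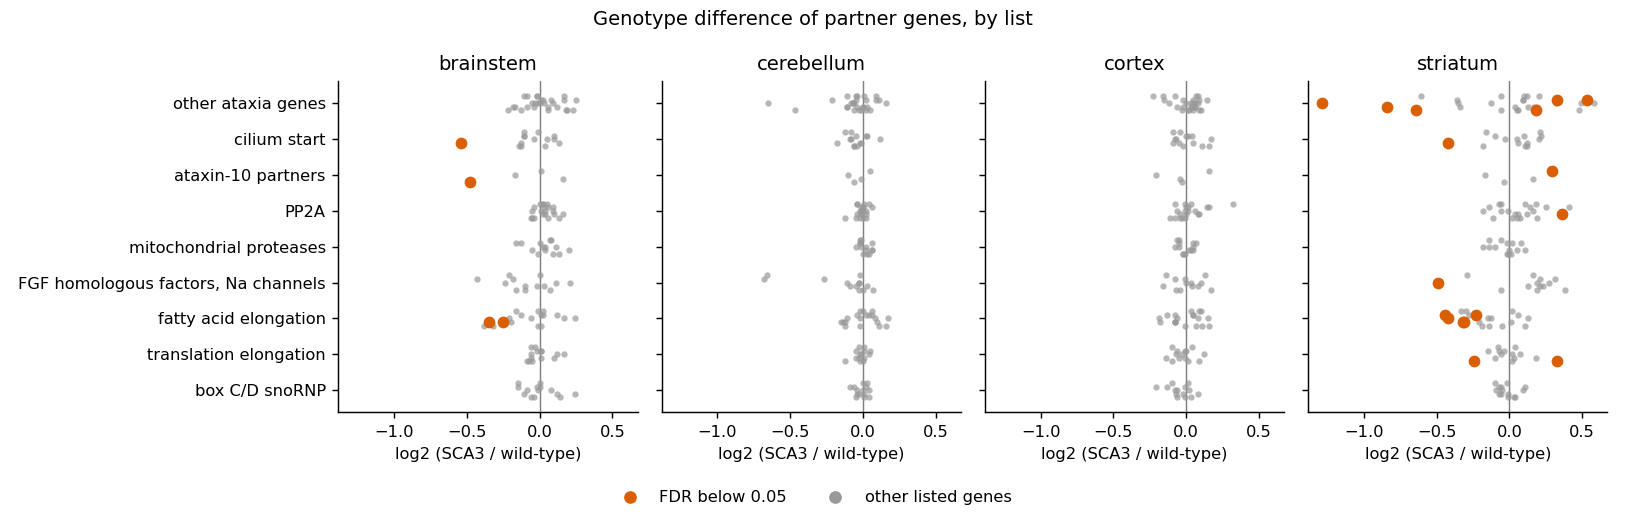
Log2 difference of SCA3 from wild-type mice (x axis) for the genes of 9 partner lists (y axis) in 4 regions. Orange points passed an FDR of 0.05 in the fit of all libraries and grey points did not. Calls are seen in brainstem (4) and striatum (17), and none in cerebellum or cortex.

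Among the fatty acid elongation and desaturation genes around Elovl5, 2 of 19 fell in brainstem and 5 of 19 in striatum, and 0 rose. Of all genes 1.92% and 7.54% passed there, in either direction. In brainstem these were Scd2, a stearoyl-CoA desaturase, at 2442 ± 199 against 3117 ± 358 CPM (-0.35, FDR 0.0079), and Fads1, the delta-5 desaturase, at 218 ± 23.6 against 260.4 ± 21.4 CPM (-0.25, FDR 0.013). In striatum Fads1 (-0.31, FDR 0.0012), Scd2 (-0.32, FDR 0.016), the enoyl reductase Tecr (-0.23, FDR 0.016) and the delta-6 desaturase Fads2 (-0.42, FDR 0.023) fell, as did Fads3. The list's median was -0.06 in brainstem and -0.19 in striatum, beside -0.00 for all genes there. The oligodendrocyte score differed by -0.405 in SCA3 brainstem and -0.412 in SCA3 striatum, adjusted p 0.34 and 0.62 by exact permutation. The astrocyte score differed by -0.348 and -0.303 there, adjusted p 0.34 and 0.50 by exact permutation. With the oligodendrocyte score in fits of a region alone, Fads1 passed in brainstem (-0.32, FDR 0.0034) and striatum (-0.34, FDR 0.035) and Fads2 in striatum (-0.39, FDR 0.038). Scd2 in brainstem (-0.17, FDR 0.065) and Scd2 (-0.10, FDR 0.65), Tecr (-0.21, FDR 0.24) and Fads3 (-0.55, FDR 0.18) in striatum did not pass with the oligodendrocyte score. With the thalamic score Fads1 (-0.29, FDR 3.2e-05) and Scd2 (-0.33, FDR 0.0018) passed in brainstem, whereas Fads1 (-0.28, FDR 0.18) and Fads2 (-0.29, FDR 0.071) did not in striatum. Fads1 also did not pass in striatum alone (FDR 0.089). The part of the astrocyte score was not tested. Without the libraries high in Tcf7l2, Fads1 and Scd2 in brainstem still passed (FDR 0.0084 and 0.0013), as did Fads1 (0.0015) and Fads2 (0.042) in striatum, while Scd2 (0.19), Tecr (0.086) and Fads3 (0.087) in striatum did not.

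Of 14 genes of cilium formation measured beside Ttbk2, Ccp110 fell in brainstem and striatum and no other passed. CCP110 caps the centriole, and its removal, for which TTBK2 is needed, lets the cilium grow. In brainstem Ccp110 stood at 127 ± 10.3 CPM (113 to 143) in SCA3 and 186 ± 19.1 CPM (154 to 217) in wild-type mice without overlap (-0.54 ± 0.12, FDR 0.0011), and it passed in 30 of 30 alternatives. In striatum the difference was -0.42 (FDR 0.021) and -0.22 without the libraries high in Tcf7l2 (FDR 0.31), and -0.09 with the oligodendrocyte score in striatum alone (FDR 0.71). Of 4 ataxin-10 partners Cep290, a protein of the ciliary transition zone, fell in brainstem (19.7 to 31.4 CPM against 30.6 to 44.6 CPM in wild-type mice, -0.48, FDR 0.011). Its difference was -0.49 without the libraries high in Tcf7l2, where the FDR was 0.16, and it passed in 27 of 30 alternatives. Ogt, the O-GlcNAc transferase that ataxin-10 binds, rose in striatum (667 ± 42.7 against 544 ± 46.1 CPM, 0.29, FDR 0.0001). Ogt passed in 24 of 30 alternatives, but not in striatum alone (FDR 0.072) or with a marker score there (FDR 0.12 to 0.48).

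Of 21 phosphatase 2A genes only Ppp2r2a, another B-type subunit, passed, and it rose in striatum (0.36, FDR 0.0029, and 0.26, FDR 0.064, without the libraries high in Tcf7l2). Of 13 FGF homologous factors, sodium channels and their anchors only Fgf12 passed. It fell in striatum (122 ± 24.1 against 171 ± 44.1 CPM, -0.49, FDR 0.0074, and -0.35, FDR 0.13, without those libraries), where Fgf14 stood 0.24 higher. Of 14 translation elongation genes Eef1d fell (-0.24, FDR 0.0082) and Dph6, which acts in making the diphthamide of EEF2, rose (0.33, FDR 0.011) in striatum, and neither passed without those libraries (-0.17, FDR 0.090, and 0.22, FDR 0.11). None of 14 mitochondrial protease genes passed (smallest FDR 0.064, Clpp in striatum). However, Spg7, which pairs with Afg3l2 in the m-AAA protease, passed in 4 of 30 alternatives in brainstem. Among them were brainstem alone (0.19, FDR 0.027) and that fit with the thalamic score (0.20, FDR 0.0074). None of 14 genes of box C/D and H/ACA particles and their assembly passed (smallest FDR 0.11, Rpap3 in brainstem). In brainstem 3 of 14 genes of either list had an unadjusted p below 0.05 by the likelihood ratio test, where 13.3% of all genes did.

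Of 28 further spinocerebellar ataxia genes measured, 6 passed in striatum (7.54% of all genes) and 0 in brainstem (1.92%). Atxn3 (58.0 ± 4.04 against 46.2 ± 4.24 CPM, 0.33, FDR 0.00012) and Ccdc88c (0.53, FDR 0.039) were among those that rose. The calcium channel gene Cacna1g (49.1 ± 23.3 against 119.8 ± 60.2 CPM, -1.29, FDR 0.00033) and Bean1 (-0.64, FDR 0.0088) were among those that fell. Reads of the human ATXN3 transgene could be counted in mouse Atxn3 where the sequences match, which was not tested. The Cacna1g difference was -1.0 without the libraries high in Tcf7l2 (FDR 0.014), was -0.65 with the thalamic score in the fit of striatum alone (FDR 0.65), and passed in 24 of 30 alternatives. Ccdc88c did not pass without the libraries high in Tcf7l2 (FDR 0.29).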

How the data were processed

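RNA from 4 brain regions was sequenced as non-stranded poly-A libraries. Per the labels and methods, the authors aligned reads with STAR 2.3.0e, counted uniquely aligned reads per RefSeq gene with HTSeq 0.6.1, and kept genes averaging over 4 CPM (tool versions from the submitters' processing notes). The deposited values are raw counts. All 53 columns were mapped to samples by library name. Counts were fitted with edgeR 4.0.16 (TMM, 8 groups of region and genotype, likelihood ratio test, Benjamini-Hochberg over 12372 genes, FDR below 0.05 called), as in the study's own design. DESeq2 1.42.0 and limma 3.58.1 served as alternatives. Intervals are 95%. CPM are TMM-scaled, log2 CPM used a prior count of 2, and RPKM used GENCODE M21 exons of transcripts tied to RefSeq mRNAs. Scores are mean log2 CPM of a marker list, and relations used 100000 permutations within genotype.

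The members and all lists were chosen with earlier results of these data known. All members were named. From each list, genes passing in a region were named, at most 4 per list and region in order of FDR, and otherwise up to 2 with the smallest FDR. Fads3, Ccdc88c and Ppp2r3a fall outside that rule and were named after their values were seen. The 3 most alike genes were named per member. Some genes that the rule names are not reported here.

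Same-numbered libraries come from the same mouse. Deviations from group means in 2 regions of a mouse correlated on average by 0.0904 to 0.186 over 12 or 13 mice per region pair, and the consensus within-mouse correlation was 0.14. All libraries of a mouse share its genotype, and a mouse block therefore matters for the region comparisons. Alternatives comprised 28 planned settings, among them leaving out each of 14 mice, and 4 added after the data were seen (other marker scores as covariates, and libraries left out for Tcf7l2), as were the marker relations. The code was tested on simulated data. Sequences are from RefSeq (6 of 6 members sought matched). The 2 members on chromosome 18 were not searched for motifs. Human ATXN3 was not analysed here.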

Additional observations from a re-analysis of the deposited data

Results flagged for a closer look

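In 4 of 64 sets of a gene, region and genotype, a library lay far from the others by Dixon's criterion at 95%, a share that chance alone gives at about 1 in 20. Fgf14 was at 41.2 CPM in the wild-type brainstem library of mouse 9083373 (next highest 37.1) and at 26.6 CPM in the SCA3 brainstem library of mouse 9083514 (next lowest 31.0). Both libraries were high in Tcf7l2, at 158 and 141 CPM. Elovl5 was at 155 CPM in the SCA3 striatal library of mouse 9082853 (next highest 124), which also had the highest oligodendrocyte score of its group. Eef2 was at 977 CPM in the SCA3 striatal library of mouse 7267056 (next lowest 1053).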

How the results depend on the processing

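Of the genotype values of the members under alternatives, 952 kept their direction or stayed uncalled, 7 came past the threshold and 1 reversed, Elovl5 in brainstem at 0.18 with the oligodendrocyte score. The members called in brainstem went from 0 to 1 with brainstem alone (3.17% of all genes called), 1 with the thalamic score (5.49%), 2 with the oligodendrocyte score (10.6%) and 1 with the striatal projection score (3.31%). Leaving out 1 mouse gave 0 to 1 members called in striatum (2.40% to 14.8% of all genes), 0 to 1 in the combined test (2.25% to 8.48%), 0 to 1 for region dependence (0.0242% to 2.13%) and 2 to 4 between wild-type cortex and striatum (at least 25.6%). In the other region pairs it gave 8 between brainstem and cerebellum (68.9% to 72.5%), 5 to 7 for brainstem and cortex (61.1% to 65.6%), 6 to 8 for brainstem and striatum (59.3% to 65.6%), 5 to 6 for cerebellum and cortex (66.0% to 69.6%) and 4 to 5 for cerebellum and striatum (66.3% to 69.3%), with 20 calls lost and 3 gained over all mice and pairs. Between cortex and striatum 4 passed with the mouse as a random replicate block (39.1% of all genes) and 4 without the libraries high in Tcf7l2. With the mouse as a fixed replicate block Elovl5 was lost between cerebellum and cortex (0.21, FDR 0.071) and Atxn10 gained between cortex and striatum (0.15, FDR 0.038). The blocks changed no other call of a member. Of the partner genes, 3 passed in striatum alone (0.711% of all genes), and without the libraries high in Tcf7l2 7 passed in striatum (2.76%) and 1 in cortex (0.493%). Of 52 marker score differences taken by medians instead of means, 2 crossed an unadjusted p of 0.05: the oligodendrocyte precursor score in brainstem (0.149, exact permutation p 0.074, against 0.227 and 0.042 by means) and the neuron score in brainstem (-0.0710, exact permutation p 0.048, against -0.0658 and 0.081). The smallest p by medians was that of the brainstem neuron score in striatum (-1.81, exact permutation p 0.0078, against -1.25 and 0.026 by means). The cause of these changes was not tested. Every member had at least 1163 reads in each library. With 5 to 8 mice per group, the intervals were widest for Ttbk2, whose biological coefficient of variation was the largest of the members (16.7%).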
